A study of Mus musculus with 6 samples.

Results

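Transcripts of 10 genes that move or bind zinc and other metals were followed across all 6 RNA sequencing libraries of a mouse embryonic stem cell series, out of 19713 genes measured. They were taken by gene symbol and comprise the ZIP importers Slc39a8, Slc39a14, Slc39a4, Slc39a6, Slc39a10 and Slc39a7, the ZnT transporters Slc30a1 and Slc30a5, and the metallothioneins Mt1 and Mt2. All 10 were present in the table and all 10 passed the filter on low values. The libraries came from Thap1 ΔExon2 cells, in which exon 2 of the gene was deleted (KO), from Thap1 C54Y/C54Y cells, which carry a missense change on both alleles (C54Y), and from wild-type cells (WT), with 2 libraries of each genotype, numbered replicate 1 and replicate 2. THAP1 is a zinc finger transcription factor. All cells were ES cells derived from C57Bl/6 blastocysts and were kept on irradiated mouse embryonic fibroblasts in serum with leukemia inhibitory factor at 1000 units per ml. Whether each genotype was 1 clone, and whether its libraries came from separate cultures, was not given in the sources used here, so p-values measure only the spread between these samples.

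Zinc enters the cytosol through ZIP proteins of the Slc39 family, from outside the cell or from organelles, and leaves it through ZnT proteins of the Slc30 family. Metallothioneins are small cysteine-rich proteins that bind zinc and copper. When cytosolic zinc rises, the zinc-sensing factor MTF1 binds metal response elements in DNA, and in mice it induces Mt1, Mt2 and Slc30a1.

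Metal response elements have the core letters TGCGCNC or TGCACNC, in which N is any base. Windows of 300 bases, from 250 bases before to 50 bases after each annotated start, were read from the RefSeq promoters of build GRCm38.p6, which held 7 of the 10 genes. Slc39a4, Slc39a6 and Slc39a14 had no entry. The windows of the MTF1 targets Mt1, Mt2 and Slc30a1 are shown because their transcripts are compared below, and the window of the second annotated start of Slc39a8 because that gene differed most between genotypes. Capitals mark the core letters on either strand. All are on the plus strand, at chr8:94178839-94179138 (Mt1), chr8:94172368-94172667 (Mt2), chr1:191906531-191906830 (Slc30a1) and chr3:135825407-135825706 (Slc39a8).
Mt1: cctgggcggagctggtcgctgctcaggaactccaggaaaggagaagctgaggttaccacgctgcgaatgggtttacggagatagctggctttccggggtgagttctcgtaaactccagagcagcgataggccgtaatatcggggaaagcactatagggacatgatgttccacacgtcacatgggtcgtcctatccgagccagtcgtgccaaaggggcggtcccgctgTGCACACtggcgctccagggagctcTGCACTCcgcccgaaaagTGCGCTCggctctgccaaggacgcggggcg
Mt2: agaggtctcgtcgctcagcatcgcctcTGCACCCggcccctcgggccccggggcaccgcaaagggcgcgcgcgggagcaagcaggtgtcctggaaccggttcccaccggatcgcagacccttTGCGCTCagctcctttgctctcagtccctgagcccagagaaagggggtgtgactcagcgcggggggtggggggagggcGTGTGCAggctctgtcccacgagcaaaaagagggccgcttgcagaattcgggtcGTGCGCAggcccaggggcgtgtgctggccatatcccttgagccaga
Slc30a1: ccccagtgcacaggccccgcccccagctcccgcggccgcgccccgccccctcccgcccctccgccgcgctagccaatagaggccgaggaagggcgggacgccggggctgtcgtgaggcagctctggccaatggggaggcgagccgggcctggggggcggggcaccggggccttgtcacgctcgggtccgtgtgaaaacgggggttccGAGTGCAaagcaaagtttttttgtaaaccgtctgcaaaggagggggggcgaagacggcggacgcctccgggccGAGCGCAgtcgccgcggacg
Slc39a8: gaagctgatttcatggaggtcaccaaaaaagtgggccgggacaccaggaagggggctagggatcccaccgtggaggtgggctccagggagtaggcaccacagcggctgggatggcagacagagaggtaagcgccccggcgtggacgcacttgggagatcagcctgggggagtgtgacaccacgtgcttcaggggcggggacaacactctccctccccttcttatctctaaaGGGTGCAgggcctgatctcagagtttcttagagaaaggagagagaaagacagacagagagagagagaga
The Mt1 window held 3 matches, the Mt2 window 4, the Slc30a1 window 2 and the Slc39a8 window 1. Among all 32851 promoter windows of this length, 25.7% held at least 1 match and 0.517% held 4 or more. Slc30a5 had 1 match, while the windows of Slc39a7, Slc39a10 and the first start of Slc39a8 had none of these letters. The letters TNNGGGCA, a consensus described for THAP1 binding, were in 13.9% of all windows on either strand and, among the 7 genes, in that of Slc30a5. A match describes letters in the window and not a bound site.

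Library depth ranged from 31774656 to 46772996 reads assigned to genes. The deposited values were normalized counts: the reads of a gene over the size factor of the library. Reads for Thap1 did not serve as a check of the deletion, since a count over the whole gene includes exons outside it: normalized counts were 1975 and 1687 in KO, 2253 and 2533 in C54Y, and 433 and 701 in WT. Replicate 1 and replicate 2 differed far more than the genotypes did: 9917 of 15287 tested genes (64.9%) were called between the replicate numbers. Genotypes were therefore compared within each replicate number, with replicate number as a block in limma and Benjamini-Hochberg adjustment over all 15287 genes. Unless stated otherwise, log2 fold changes (± SE) and adjusted p-values come from this fit and are on the scale of log2 of the normalized count plus 2. Without the block limma called 0 genes in each of the 3 genotype comparisons, with 1049 at an unadjusted p under 0.05 in KO against WT, 252 in C54Y against WT and 207 in KO against C54Y. Every genotype call below was therefore lost in limma without the block. edgeR without it also called 0 genes in each comparison, and DESeq2 without it called 235 in KO against WT, 28 in C54Y against WT and 3 in KO against C54Y, none of them among the 10 genes.

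Per length of exon, the metallothioneins were far above the transporters. In RPKM, reads scaled to exon length and library depth, Mt2 lay between 677 and 1177 over the 6 libraries and Mt1 between 149 and 525. These ranges did not overlap, but they depend on the exon lengths used, 588 bases for Mt2 and 1246 for Mt1. In normalized counts the ranges did overlap, at 13346 to 28815 for Mt2 and 6532 to 27257 for Mt1. Slc39a7, which releases zinc from the endoplasmic reticulum and Golgi, was the highest transporter at 51.7 to 83.6 RPKM. Slc39a4, the importer of dietary zinc in the intestine, followed at 14.4 to 19.7 RPKM. Slc39a10 ranged from 1.92 to 21.02 RPKM, Slc30a5 from 4.19 to 10.5, Slc39a14 from 3.49 to 10.4 and Slc39a6 from 4.49 to 8.86. These 4 overlapped throughout, and Slc39a10 also overlapped Slc39a4. Slc30a1 ranged from 1.14 to 5.94 RPKM and overlapped the same 4. Slc39a8 was lowest by mean, at 0.0296 to 1.76 RPKM, a range that reached into that of Slc30a1. Exon lengths came from GENCODE M21 on GRCm38 and not from the annotation used for counting. Annotated exons of Gm45774, an antisense transcript, cover 73.5% of the Mt2 exon bases, and those of Gm20427, on the same strand, cover 80.7% of Slc39a7. Neither overlapping transcript was among the genes measured. Whether strand was used in counting was not given in the sources used here, so reads of Mt2 and Gm45774 cannot be told apart. Strand could not separate Slc39a7 from Gm20427 in any case.

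**Figure D1:**
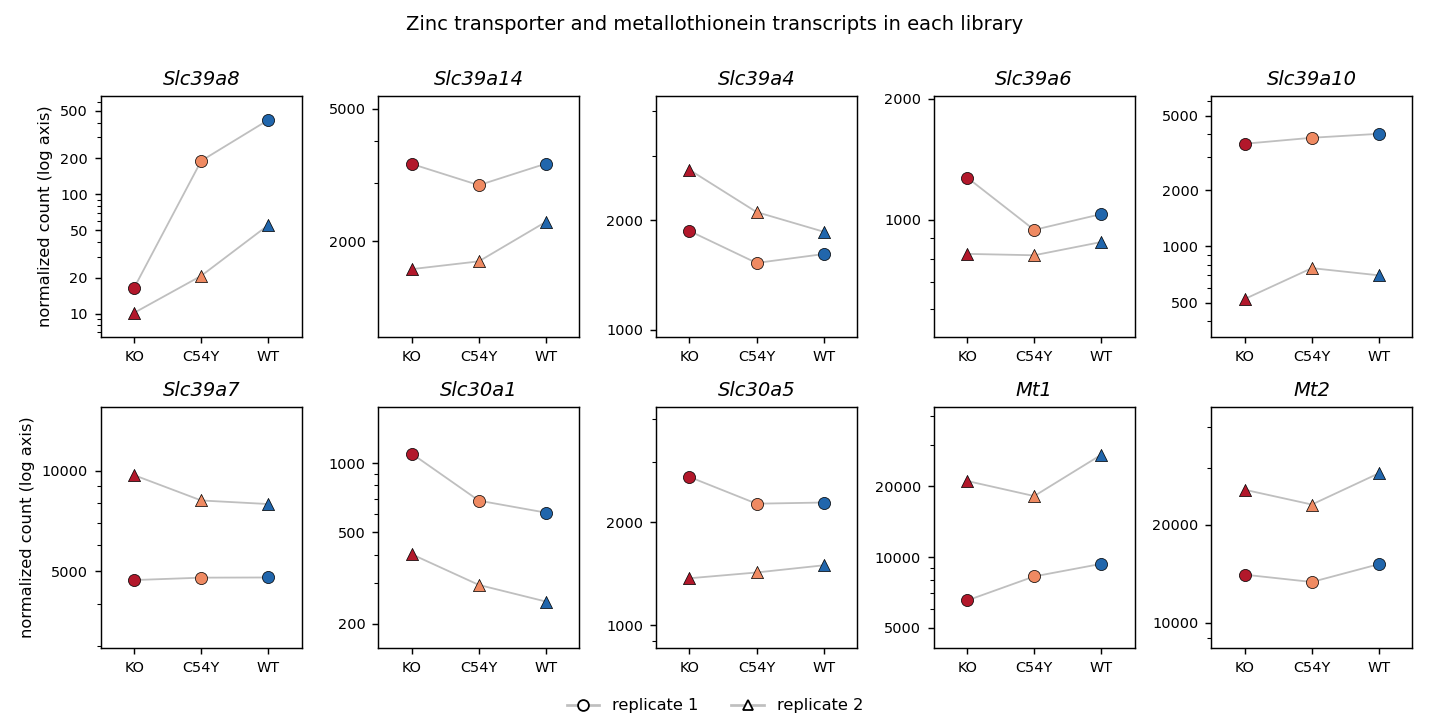
Normalized count of each gene (log axis) in every library, by genotype, with circles for replicate 1, triangles for replicate 2 and grey lines joining libraries of the same replicate number. Slc39a8 was lowest in KO in both replicates, while for Slc39a10, Slc39a7 and Mt1 the distance between the replicates was larger than any distance between genotypes.

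In cells with exon 2 of Thap1 deleted, Slc39a8 fell and Slc30a1 rose, and the other 8 genes were not called. These 2 calls among 10 genes stand beside 2494 calls among all 15287 genes, or 16.3% (8.9% up and 7.41% down), so the share of calls was close to that of the whole table. The median log2 fold change of the 10 genes was -0.04, against 0.03 over all genes. Of the 10, 4 had an unadjusted p under 0.05. Libraries of KO and WT did not overlap for 2 of the 10 (Slc39a8 and Slc39a4), against 27.2% of all genes. Libraries of C54Y and WT did not overlap for 0 of the 10 (18% of all genes), and those of KO and C54Y for 1, Slc39a8 (17.5%).

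Slc39a8 encodes ZIP8, which carries zinc, manganese, iron and cadmium into cells. Its normalized counts were 16.5 and 10.2 in KO (replicates 1 and 2), 191 and 20.8 in C54Y, and 421 and 55.3 in WT. Both KO libraries lay below every C54Y and WT library, and within each replicate number the order was KO, C54Y, WT from low to high. KO levels were 3.92% of WT in replicate 1 and 18.4% in replicate 2, and C54Y levels were 45.4% and 37.6%. The fall in KO was called (-3.37 ± 0.56, adjusted p = 0.00554). It rests on 19 and 8 reads in the KO libraries, which leaves its size imprecise, and the estimates were -4.51 in replicate 1 and -2.24 in replicate 2. C54Y against WT was not called (-1.23 ± 0.56, adjusted p = 0.417), nor was KO against C54Y (-2.14 ± 0.56, adjusted p = 0.138). The last was called by DESeq2 with the block (-2.56, adjusted p = 0.000848) and by limma-voom with the block (-2.99, adjusted p = 0.0221), and by limma without WT replicate 1 (adjusted p = 5.73e-05), WT replicate 2 (0.0289) or KO replicate 2 (3.04e-06). C54Y against WT was called without KO replicate 1 or KO replicate 2, with the same fold change. Where 1 library is left out, the lone library of its group is assumed to vary like the others. In each of these fits calls over all genes rose as well, so these calls are not particular to Slc39a8. Leaving out either KO library raised the calls over all genes in every genotype comparison, which also applies to the genes below.

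Slc39a14 encodes ZIP14, the closest relative of ZIP8, with a like range of metals. It had 3415 and 1652 normalized counts in KO, 2950 and 1743 in C54Y, and 3422 and 2290 in WT. The groups overlapped, and neither KO (-0.24 ± 0.16, adjusted p = 0.356) nor C54Y (-0.30 ± 0.16, adjusted p = 0.508) was called against WT. Without KO replicate 1 the KO value was -0.43 and was called (adjusted p = 0.0218). In replicate 1 KO was at 99.8% of WT, in replicate 2 at 72.1%.

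Most endoderm markers were lower in both mutants than in WT. The list includes the receptor Cubn and the transcription factors Gata4, Gata6 and Sox17. Of 16 tested endoderm markers, 12 were called down in KO (7.41% of all genes) and 0 up, with a median of -1.86. In C54Y 9 were called down (0.399% of all genes) and 0 up, with a median of -1.35. In each mutant 15 were below 0 and 1, Apob, was above it (0.64 in KO and 0.93 in C54Y). Their summed normalized counts were 13756 and 14186 in KO, 16952 and 14756 in C54Y, and 41889 and 25256 in WT. Of the 18 listed, Ttr had 8 and 3 reads in WT and none in any KO or C54Y library. Afp had 2 and 1 reads in WT, 3 and 0 in KO, and none in C54Y. Neither passed the filter on low values. Within each replicate number the endoderm sums and Slc39a8 had the same order, while over all 6 libraries they did not. In replicate 1 the sums were 13756 in KO and 16952 in C54Y, and Slc39a8 was at 16.5 and 191. In KO against C54Y, 11 of the 16 tested markers were below 0 and 5 above. Of these, 0 were called, where 0.19% of all genes were. Fewer cells of a type and less RNA per cell cannot be told apart in bulk libraries, and the part of endoderm cells in the Slc39a8 result was not tested. Markers of pluripotent cells mostly moved the other way. Of 8 tested, 6 were called up in KO (8.9% of all genes) and 0 down, with a median of 0.93. In C54Y 1 of them was called up (0.962% of all genes), with a median of 0.31. Their summed normalized counts were 301851 and 461391 in KO, 182881 and 375851 in C54Y, and 154158 and 306382 in WT, and none was at 0 in any library. In KO Zfp42 stood at 2.98, Nanog at 1.46 and Pou5f1 at 0.65 (adjusted p = 0.000187, 0.00144 and 0.00439). Their part in the Slc39a8 result was not tested either.

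Slc40a1, from the list of iron genes, showed an order like that of Slc39a8. Slc40a1, which encodes ferroportin, the exporter of iron, had 234 and 298 normalized counts in KO, 608 and 470 in C54Y, and 1403 and 817 in WT. The 3 groups did not overlap, and the fall in KO was called (-2.01 ± 0.26, adjusted p = 0.00215). Both mutants were thus below WT in both replicates, but C54Y against WT was not called (-0.999 ± 0.26, adjusted p = 0.131) except by DESeq2 with the block (adjusted p = 0.0084) and by limma without WT replicate 2 (0.0228), KO replicate 1 (7.55e-06) or KO replicate 2 (0.000103). KO against C54Y was not called in the main fit (-1.01 ± 0.26, adjusted p = 0.14), although DESeq2 with the block called it (adjusted p = 0.0168). Limma also called it without WT replicate 1 or WT replicate 2 (both -1.01) or KO replicate 2 (-1.47). Slc40a1 is not one of the 10 genes and was named by the rule for called genes of the iron list.

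**Figure D2:**
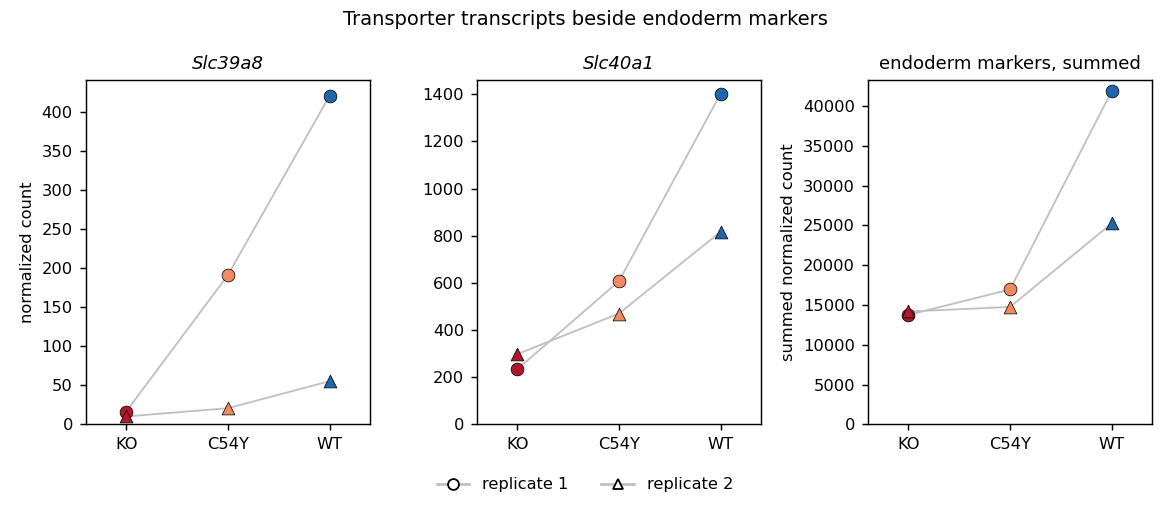
Normalized counts of Slc39a8 and Slc40a1 and the summed normalized counts of 18 endoderm markers, by genotype, with circles for replicate 1 and triangles for replicate 2. Within each replicate number all 3 were highest in WT and lowest in KO. Lama1, Lamb1, Col4a1 and Col4a2 made up most of each endoderm sum.

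Slc30a1 encodes ZnT1, which exports zinc across the plasma membrane. It had 1100 and 401 normalized counts in KO, 687 and 295 in C54Y, and 609 and 250 in WT. Within each replicate number KO was highest and WT lowest, but replicate 2 of KO lay below replicate 1 of WT, so the groups overlapped. KO was at 181% of WT in replicate 1 and 161% in replicate 2, a called rise (0.77 ± 0.19, adjusted p = 0.0274). The call was lost when WT replicate 1 (adjusted p = 0.168), WT replicate 2 (0.118), C54Y replicate 1 (0.0574) or C54Y replicate 2 (0.0507) was left out. C54Y was at 113% and 118% of WT and was not called (0.21 ± 0.19, adjusted p = 0.773). KO against C54Y was not called either (0.56 ± 0.19, adjusted p = 0.218), except without KO replicate 2 (adjusted p = 0.0247). Exons of 1700034H15Rik, on the opposite strand, cover 8.92% of the Slc30a1 exon bases, and that transcript had between 8.91 and 59.1 normalized counts.

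**Figure D3:**
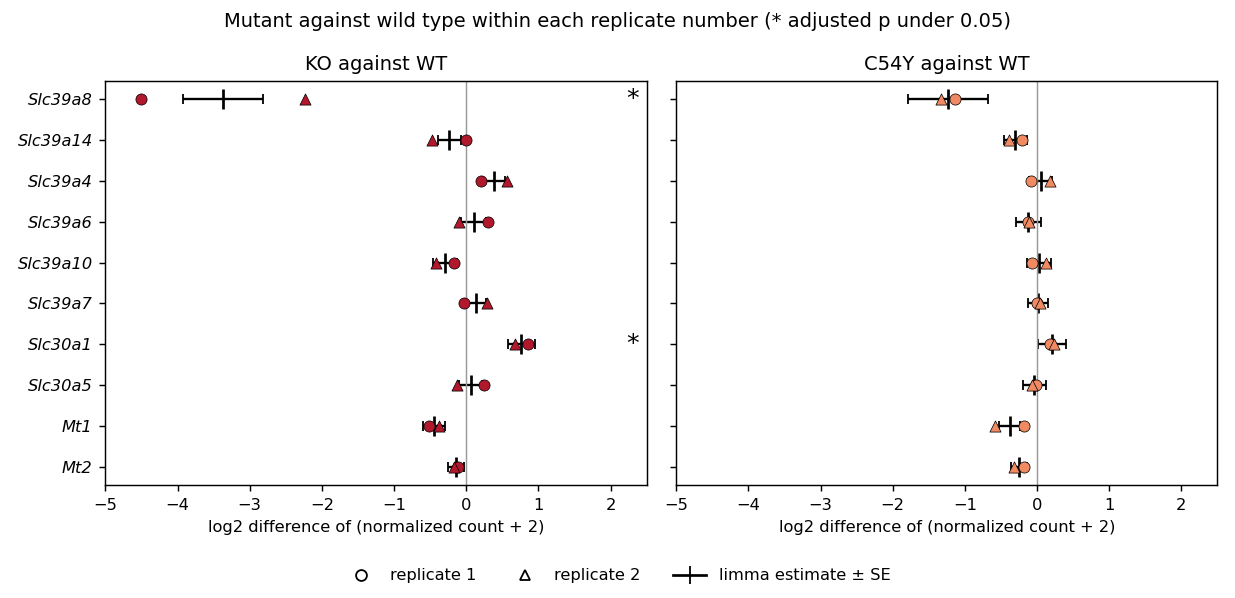
Log2 difference of each mutant from the WT library of the same replicate number (circles, replicate 1; triangles, replicate 2), with the limma estimate and its SE as a black cross. Stars mark Slc39a8 and Slc30a1 in KO, and no gene in C54Y has a star.

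The other MTF1 targets did not rise with Slc30a1. Mt1 had 6532 and 21076 normalized counts in KO, 8268 and 18180 in C54Y, and 9352 and 27257 in WT. Both mutants were below WT within each replicate number, KO at 69.8% and 77.3% of WT and C54Y at 88.4% and 66.7%, while the groups overlapped across replicates. Neither KO (-0.44 ± 0.15, adjusted p = 0.079) nor C54Y (-0.38 ± 0.15, adjusted p = 0.339) was called, although KO was called with TMM factors in limma (-0.53, adjusted p = 0.049) and in limma-voom (-0.52, adjusted p = 0.0376), and without KO replicate 2 (-0.62, adjusted p = 0.00276). C54Y was called without KO replicate 1 (adjusted p = 0.0138) or KO replicate 2 (0.029).

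Mt2 had 14054 and 25632 normalized counts in KO, 13346 and 23090 in C54Y, and 15142 and 28815 in WT. Again each mutant library was below the WT library of its replicate number, by less than for Mt1 in KO. KO stood at 92.8% and 89.0% of WT and C54Y at 88.1% and 80.1%. Neither was called (KO -0.14 ± 0.11, adjusted p = 0.447; C54Y -0.25 ± 0.11, adjusted p = 0.411).

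As a ratio of normalized counts, Mt1 over Mt2 was 0.465 and 0.822 in KO, 0.620 and 0.787 in C54Y, and 0.618 and 0.946 in WT. The ratio was higher in replicate 2 of every genotype. Mt1 and Mt2 together took 0.0583% and 0.104% of reads in KO, 0.0680% and 0.100% in C54Y, and 0.0785% and 0.135% in WT. Feeder fibroblasts also make metallothioneins: summed normalized counts of 24 fibroblast markers were 38124 and 85768 in KO, 64492 and 87757 in C54Y, and 55230 and 74737 in WT. Fn1 had the highest RPKM of these markers in KO replicate 1, at 73.7, ahead of Vim at 16.1. In KO replicate 2 Fn1 was at 50.7, below Acta2 at 149.5, Tagln at 77.5, Vim at 76.4 and S100a4 at 59.7. The make-up of the sums thus differed between these libraries. Of 23 tested fibroblast markers, 1 was called in KO (Mmp2, down), where 7.41% of all genes were called down. The median of the 23 in KO against WT was -0.44, with 19 below 0, while in C54Y against WT it was 0.07, with 9 below 0. The part of feeder cells in the metallothionein values was not tested.

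Slc39a4, which in mice also serves the visceral yolk sac, had 1867 and 2749 normalized counts in KO, 1524 and 2104 in C54Y, and 1613 and 1858 in WT. The KO libraries lay above both WT libraries, at 116% and 148% of WT, but the difference was not called (0.39 ± 0.16, adjusted p = 0.129), except without KO replicate 1 (0.50, adjusted p = 0.00974). C54Y stood at 0.05 ± 0.16 (adjusted p = 0.951).

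Slc39a6 and Slc39a10 encode ZIP6 and ZIP10, plasma membrane importers of the same subfamily that can pair with each other. Slc39a6 had 1274 and 822 normalized counts in KO, 944 and 816 in C54Y, and 1033 and 880 in WT, with KO above WT in replicate 1 and below it in replicate 2. Slc39a10 had 3538 and 524 in KO, 3808 and 766 in C54Y, and 3998 and 701 in WT. Its KO libraries were at 88.5% and 74.8% of WT, while replicate 2 was at 0.148 of replicate 1 in KO. With all 6 libraries no call was made for Slc39a6 (KO 0.10 ± 0.18, adjusted p = 0.744; C54Y -0.12 ± 0.18, adjusted p = 0.881) or for Slc39a10 (KO -0.30 ± 0.16, adjusted p = 0.26; C54Y 0.03 ± 0.16, adjusted p = 0.974). Without KO replicate 1, Slc39a10 was called in KO against WT (-0.47, adjusted p = 0.0197) and in KO against C54Y (-0.50, adjusted p = 0.0425).

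Slc39a7 and Slc30a5 act in the secretory pathway. Slc39a7 had 4713 and 9698 normalized counts in KO, 4792 and 8149 in C54Y, and 4798 and 7950 in WT. KO was at 98.2% of WT in replicate 1 and at 122% in replicate 2, and C54Y at 99.9% and 102%. Slc30a5 encodes ZnT5, which loads zinc into the early secretory pathway. Slc30a5 had 2705 and 1372 normalized counts in KO, 2262 and 1426 in C54Y, and 2279 and 1496 in WT. All groups overlapped for both genes. Neither was called in KO (Slc39a7 0.13 ± 0.14, adjusted p = 0.573; Slc30a5 0.06 ± 0.16, adjusted p = 0.835) or in C54Y (0.02 ± 0.14, adjusted p = 0.981; -0.04 ± 0.16, adjusted p = 0.961). With TMM factors the Slc30a5 value in KO was -0.03 and the Slc39a7 value in C54Y was -0.01.

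In C54Y against WT limma with the block called 0 of the 10 genes, and edgeR, DESeq2 and limma-voom with the block also called 0; 1 of the 10 had an unadjusted p under 0.05. Over all genes tested 208 (1.36%) were called in this comparison, 0.962% up and 0.399% down. The median of the 10 genes was -0.08, against -0.00206 over all genes, and their values ranged from -1.23 (Slc39a8) to 0.21 (Slc30a1). In KO against C54Y limma also called 0 of the 10, with 2 at an unadjusted p under 0.05, where 29 of all genes tested (0.19%) were called, 0.0458% up and 0.144% down. edgeR called 0 of the 10 there, and DESeq2 and limma-voom called 1 each, Slc39a8. The comparisons with WT share the WT libraries, so their values for these genes are not independent of each other.

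The replicate numbers moved 9 of the 10 genes, 4 up and 5 down, where 64.9% of all genes were called (32% up and 32.8% down). Slc39a10 was lower in replicate 2 by -2.52 ± 0.13 on the log2 scale (adjusted p = 9.78e-07), with replicate 2 over replicate 1 ratios of 0.148 in KO, 0.201 in C54Y and 0.175 in WT. Slc39a8 (-2.19 ± 0.45), Slc30a1 (-1.31 ± 0.16), Slc39a14 (-0.79 ± 0.13) and Slc30a5 (-0.75 ± 0.13) were lower as well. Mt1 (1.46 ± 0.12, adjusted p = 1.03e-05), Mt2 (0.86 ± 0.09), Slc39a7 (0.84 ± 0.11) and Slc39a4 (0.41 ± 0.13, adjusted p = 0.0191) were higher in replicate 2. Slc39a6 was not called (-0.36 ± 0.15, adjusted p = 0.0565). Both metallothioneins thus stood on the opposite side from Slc30a1, the other MTF1 target, in each genotype. Exon length differed along the same line: the 4 genes higher in replicate 2 had from 588 (Mt2) to 3106 bases (Slc39a4). The others had from 4073 (Slc39a6) to 10550 bases (Slc39a14), with Slc30a1 at 5244. The part of length in these values was not tested. Fibroblast markers were also higher in replicate 2, with 15 of 23 called up, 1 called down and a median of 1.599, and their part in these values was not tested. TMM factors shifted the median of all genes in this comparison by -0.104, with which Slc39a4 was no longer called (0.30, adjusted p = 0.0674) and Slc39a6 was called (-0.46, adjusted p = 0.017). Slc39a4 was also lost without C54Y replicate 1 (adjusted p = 0.146) or C54Y replicate 2 (0.156). What the replicate number marks was not given in the sources used here.

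**Figure D4:**
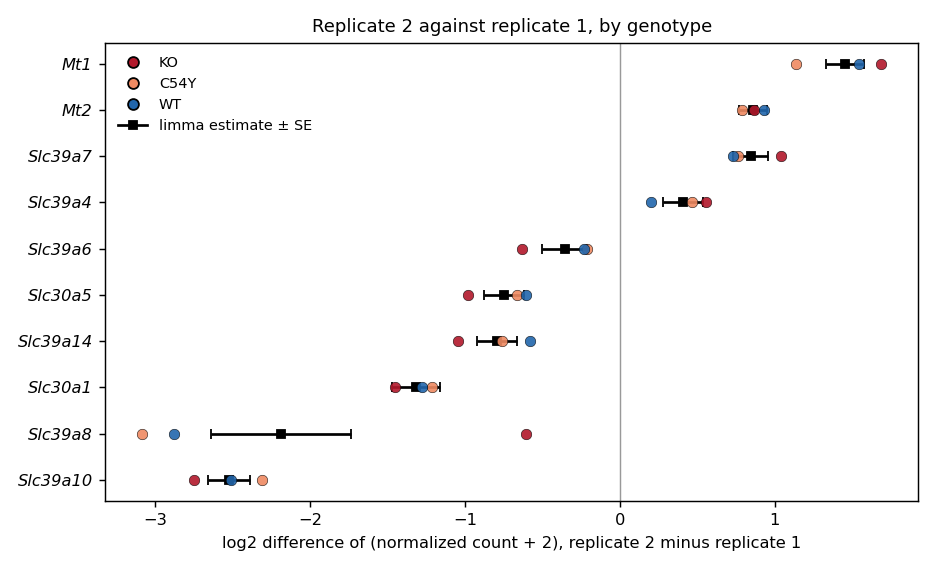
Log2 difference of replicate 2 from replicate 1 for each gene, with 1 point for each genotype and the limma estimate with its SE as a black square. Mt1, Mt2, Slc39a7 and Slc39a4 lie right of 0 in all 3 genotypes, and the other 6 genes lie left of 0 in all 3.

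The 10 genes are part of larger families. Of 29 ZIP, ZnT and metallothionein genes in the table (with Tmem163, a zinc efflux protein), 27 were tested. Of these, 5 were called in KO, 3 up and 2 down, where 16.3% of all genes were called, and 2 in C54Y, both up, where 1.36% were. The families' median was -0.04 in KO and -0.04 in C54Y. Beside Slc39a8 and Slc30a1, the called genes were Slc39a9, Mt4 and Slc30a3.

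Slc39a9 encodes ZIP9, a zinc transporter of the Golgi and plasma membrane that also binds androgens. Its normalized counts were 2477 and 1557 in KO, 1950 and 1495 in C54Y, and 973 and 745 in WT. Every mutant library was above both WT libraries, at 255% and 209% of WT in KO and at 200% and 201% in C54Y. Both rises were called (KO 1.20 ± 0.16, adjusted p = 0.00226; C54Y 1.00 ± 0.16, adjusted p = 0.0209), and the C54Y call was lost without C54Y replicate 1 (adjusted p = 0.0672) or C54Y replicate 2 (0.4). Exons of Erh, on the opposite strand, cover 4.52% of the Slc39a9 exon bases. Erh itself had 11626 and 18282 normalized counts in KO, 8758 and 18727 in C54Y, and 8282 and 22738 in WT, and was not called in either mutant.

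Mt4, a metallothionein best known from stratified squamous epithelia, was far below Mt1 and Mt2. It had 73.0 and 196 normalized counts in KO, 52.4 and 122 in C54Y, and 14.9 and 21.9 in WT. All mutant libraries were above both WT libraries, and the rises passed the test for KO (2.60 ± 0.34, adjusted p = 0.00215) as for C54Y (2.03 ± 0.34, adjusted p = 0.0273). The C54Y call was lost without WT replicate 2 (adjusted p = 0.0712) or C54Y replicate 2 (0.218).

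Slc30a3 encodes ZnT3, which fills synaptic vesicles with zinc in neurons. It had 56.5 and 81.5 normalized counts in KO, 218 and 96.1 in C54Y, and 353 and 198 in WT. KO libraries were lowest without overlap, and the fall was called (-1.93 ± 0.39, adjusted p = 0.0121). C54Y was at 61.8% and 48.5% of WT and was not called (-0.86 ± 0.39, adjusted p = 0.418), except without KO replicate 1 (adjusted p = 0.00933) or KO replicate 2 (0.0179).

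**Figure D5:**
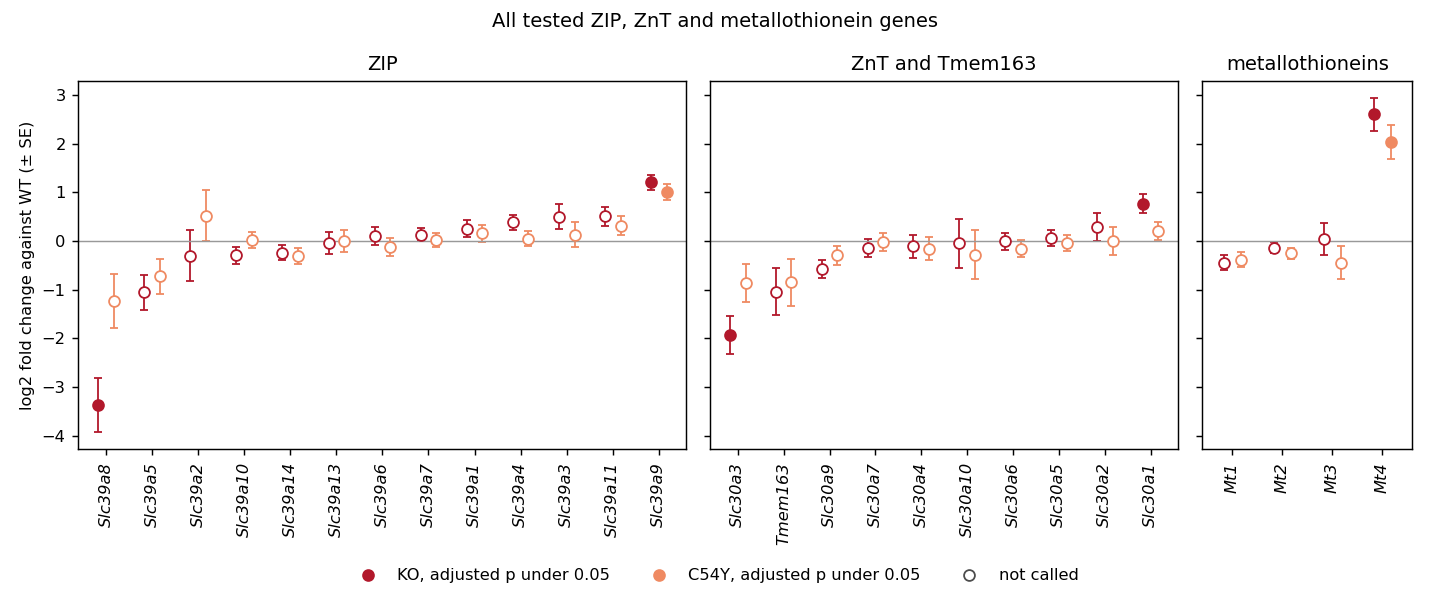
Log2 fold change against WT (± SE) of the 27 tested ZIP, ZnT and metallothionein genes in KO (red) and C54Y (orange), ordered within each family by the KO value. Filled points passed an adjusted p of 0.05: Slc39a8, Slc39a9, Slc30a3, Slc30a1 and Mt4 in KO, and Slc39a9 and Mt4 in C54Y.

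Other lists of metal genes are short, and their counts stand beside 16.3% of all genes called in KO (8.9% up and 7.41% down) and 1.36% in C54Y. Among 10 genes of MTF1 and metal or oxidant response, 1 was called in KO, Txnrd1, down, and 0 in C54Y. Txnrd1, encoding thioredoxin reductase, had 13988 and 15018 normalized counts in KO, 15774 and 17261 in C54Y, and 18397 and 27829 in WT (KO -0.64 ± 0.14, adjusted p = 0.0191). Leaving out WT replicate 2 ended that call (adjusted p = 0.221), and C54Y was called without WT replicate 1 (0.0117), KO replicate 1 (0.00518) or KO replicate 2 (0.0126). In KO 4 of the 10 were above 0 and 6 below, from -0.72 to 0.31, with a median of -0.06. In C54Y 2 were above 0 and 8 below, with a median of -0.33. Mtf1 stood highest in KO, at 0.31 (adjusted p = 0.275), and Hmox1, the haem oxygenase gene, at 0.09 (adjusted p = 0.69). Of 14 iron genes, 1 was called in KO, Slc40a1, and 0 in C54Y. Tfrc, the transferrin receptor, was at 0.23 (adjusted p = 0.553), and the ferritin genes Fth1 and Ftl1 were at 0.12 and -0.25 (adjusted p = 0.526 and 0.0821). Of 4 genes of manganese and calcium handling, 0 were called in either mutant.

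Copper genes gave 1 call up and 2 down of 11 in KO, where 8.9% of all genes were called up and 7.41% down, and 0 in C54Y, where 1.36% were called. Sco1, a copper chaperone of cytochrome c oxidase assembly, had 1452 and 1489 normalized counts in KO, 954 and 1155 in C54Y, and 884 and 1063 in WT (KO 0.60 ± 0.16, adjusted p = 0.0357). Steap2, a metalloreductase, had 965 and 356 in KO, 1305 and 378 in C54Y, and 1720 and 515 in WT (KO -0.68 ± 0.18, adjusted p = 0.0346), and its C54Y value was called without KO replicate 1 (adjusted p = 0.0361) or KO replicate 2 (0.0348). Atp7b, a copper-exporting ATPase, had 98.2 and 44.6 in KO, 236 and 81.8 in C54Y, and 192 and 92.6 in WT (KO -0.99 ± 0.28, adjusted p = 0.0412). The 3 calls were each lost without either WT or either C54Y library (adjusted p from 0.0625 to 0.256). With TMM factors Sco1 was also lost in limma (adjusted p = 0.0561) and edgeR (0.0578) but was still called in limma-voom. Atp7b was lost without the filter on low values (adjusted p = 0.0503).

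Genes with the pattern most like a given member were found by correlating log2 values over the 6 libraries, centred within each replicate number, among 12438 other genes with a mean of at least 50 normalized counts. For Slc39a8 these were Ube4b (r = 0.99955), Sh2d3c (0.99951) and Caskin1 (0.9991), of which Sh2d3c had 129 and 266 normalized counts in KO, 488 and 365 in C54Y, and 797 and 620 in WT. The correlation compares shape and not size. In KO against WT Ube4b was at -0.44, Sh2d3c at -1.91 and Caskin1 at -0.82, where Slc39a8 was at -3.37. For Mt1 the genes most alike were Cacna2d1, Cyyr1 and Cpne8 (r = 0.997, 0.996 and 0.994), and for Mt2 they were Psrc1, Sh3yl1 and Smarcd3 (0.997, 0.997 and 0.992). The 6 libraries share genotypes and replicate numbers, so these are descriptions only, and the median correlation with all genes compared was -0.233 for Slc39a8, -0.146 for Mt1 and 0.00881 for Mt2.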

How the data were processed

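RNA was measured in 6 libraries made with a TruSeq kit, 2 for each of 3 genotypes. The authors deposited normalized counts, a signal of reads per gene divided by a size factor per library, made with build mm9 per the submitters' processing notes. Those list DESeq2, HTSeq, Trimmomatic, CASAVA and TopHat2 2.1.0, without their order or settings. The gene annotation and strand setting were not given in the sources used here. Each value was a whole multiple of 1 read's worth (100% of values in every library, tolerance 1e-06), so reads were recovered. Genes with at least 10 normalized counts in at least 2 libraries were tested (15287) with limma 3.58.1 in R 4.3.3 (moderated with trend and robust options) on log2(normalized count + 2), with genotype and replicate number as terms, Benjamini-Hochberg adjustment and a threshold of 0.05. The fit was tested on simulated data. Replicate number was a block because libraries were compared within it. Deviations from the group means correlated at 0.907 for C54Y and WT, 0.869 for KO and WT and 0.895 for KO and C54Y over 15287 genes, and the pairing comes from the numbers in the sample titles. Alternatives were no block, edgeR 4.0.16, DESeq2 1.42.0, limma-voom, TMM factors, pseudocounts of 1 and 8, no filter beyond 1 read, and each library left out. edgeR and DESeq2 without the block were added after seeing the data. The 10 genes and all lists were chosen with earlier results of these data known. All 10 were named, with every called gene of the other metal lists (at most 4 per list) and the 3 genes most alike in pattern to Slc39a8, Mt1 and Mt2. Mtf1, Hmox1, Tfrc, Fth1 and Ftl1 were given outside this rule, without being called.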

Additional observations from a re-analysis of the deposited data

How the results depend on the processing

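Genes called in KO against WT numbered 2494, 0 without the replicate block, and 0 in edgeR and 235 in DESeq2 without it, with 1749 to 4861 when 1 library was left out. In C54Y against WT the 208 calls became 0 without the block, 0 in edgeR and 28 in DESeq2 without it, 479 in DESeq2 with it, and 69 to 1818 with 1 library left out. In KO against C54Y the 29 calls became 0 without the block, 0 in edgeR and 3 in DESeq2 without it, 453 in DESeq2 and 297 in limma-voom with it, and 7 to 2831 with 1 library left out. Of the 10 genes, 2 were called in KO against WT, 0 without the block in limma, edgeR and DESeq2, and 1 to 5 with 1 library left out. In C54Y against WT 0 to 2 were called with 1 library left out, and in KO against C54Y 0 to 2, with 1 in DESeq2 and 1 in limma-voom. The cause was not tested. Calls in KO against WT were 54.6% up, but 44.7% in edgeR, 44.0% in limma-voom and 44.8% in limma with TMM factors.

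Signs turned only for differences that were not called (log2 scale). Mt1 in KO against C54Y was 0.00213 in edgeR and 0.0612 in DESeq2 without the block, and -0.30 to 0.18 with 1 library left out. Slc30a5 in KO against WT was -0.0229 in edgeR, -0.00695 in limma-voom and -0.0269 with TMM factors. Slc39a10 in C54Y against WT was -0.0297 in limma-voom, and -0.067 in edgeR and -0.0412 in DESeq2 without the block. Slc39a7 in C54Y against WT was -0.0066 in edgeR, -0.00489 in limma-voom, -0.00565 with TMM factors and -0.000693 in edgeR without the block. With 1 library left out, KO against WT ranged from -0.11 to 0.23 for Slc30a5, -0.10 to 0.31 for Slc39a6 and -0.0163 to 0.28 for Slc39a7. C54Y against WT ranged from -0.15 to 0.0674 for Slc30a5, -0.13 to 0.19 for Slc39a10, -0.10 to 0.20 for Slc39a4, -0.0704 to 0.10 for Slc39a7 and -0.16 to 0.28 for Atp7b. KO against C54Y ranged from -0.0703 to 0.27 for Slc30a5, -0.12 to 0.26 for Slc39a14 and -0.0333 to 0.26 for Slc39a7. Few reads limit Slc39a8 in KO, with 19 and 8, and Mt4 in WT, with 20 and 17.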
